A study of Homo sapiens with 4 samples.

Results

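The transcripts described here encode proteins that store iron, move it across membranes, break down heme and sense the iron level of the cell. The members are the 10 genes FTH1, FTL, TFRC, SLC11A1, SLC11A2, SLC40A1, HMOX1, BLVRB, IREB2 and ACO1, taken as every non-control probe that the array files list under one of these gene names. This gave 10 of 27193 gene names and 15 of 34127 probes. They were measured in THP1, a human monoblastic acute myeloid leukemia cell line that carries the MLL-AF9 fusion gene. The cells received 30 nM of a miRNA mimic, a short synthetic RNA duplex that acts in the cell like the natural miRNA, and RNA was taken on day 2 from cells kept in medium with a low serum content. The treatments were hsa-miR-511-5p mimic (2 arrays) and negative control #1 mimic (2 arrays), and 1 array of each came from each of 2 independent experiments, so that THP1 is the background of all 4 arrays and no untransfected sample was analysed here.

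Macrophages and their precursors take up iron bound to transferrin through the transferrin receptor, release it from endosomes through divalent metal transporters, and keep what is not used in ferritin, a hollow shell built from heavy and light chains. Iron leaves the cell through ferroportin. Heme is opened by heme oxygenase to iron, carbon monoxide and biliverdin, which a biliverdin reductase then reduces. When iron is scarce, the iron regulatory proteins bind stem-loops called iron-responsive elements, which blocks translation of ferritin mRNA and stabilizes the mRNA of the transferrin receptor. Much of this control thus acts on translation and is not seen on an expression array.

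The mimic carries the sequence of the mature miRNA, and the bases 2 to 8 from its 5′ end form the seed, which pairs with target transcripts. It is shown because the treatment is this sequence, as RefSeq gives it (GRCh38.p14, chr10:17845122-17845142, plus strand), with the seed in capitals.
hsa-miR-511-5p: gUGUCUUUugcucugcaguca
The site that pairs with the seed, AAAGACA, occurred in 0 of the 15 member probes. It occurred in 331 of all 34127 probes (0.970%), and its reverse complement, the other strand, in 332 (0.973%). Probes cover only 60 bases of a transcript, so these counts say nothing of the rest of it.

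The ferritin light chain shows the element that the iron regulatory proteins bind. Its loop has the letters CAGTGN and follows an unpaired C, and the search asked for a C, any 5 bases and then CAGTGN on the sense strand of the 50 bases after each transcription start in RefSeq (GRCh38.p14). Bases 21 to 50 of FTL (chr19:48965329-48965358, plus strand) are shown with the loop letters in capitals.
FTL, bases 21 to 50: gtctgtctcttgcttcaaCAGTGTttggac
The letters were found in 586 of 35116 windows (1.67%). Of the members, 8 had such windows, 12 in all, and FTL was the 1 gene with a match. The rest of each transcript was not searched, so a member without a match here may still carry the element elsewhere. FTH1 and HMOX1 were not in the table used, and a match is a description of the letters and not a measured site.

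The values are the log2 of the scanner intensity after quantile normalization, which gives the arrays the same distribution of values. They can be compared between arrays for the same probe but not between probes. The scanner software marks spots whose signal is well above background, and this mark is used for detection. Between 22130 and 23647 probes (64.8% to 69.3%) had it per array, no spot was saturated, and 22638 probes were tested. Of the 10 genes, all had at least 1 probe well above background on all 4 arrays. This held for 14 of the 15 probes, which were all tested. Before normalization, the median intensity of the arrays lay between 92.3 and 111.2 and was lowest on the miR-511 mimic array of experiment 1, where 13 of the 14 tested member probes also had their lowest intensity, SLC11A1 being the exception.

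The label of the cell line was compared with marker genes. Of 12 myeloid markers, 10 were listed under their names and 9 of these were well above background on all 4 arrays, MEIS1 being the exception. For each list, the intensity before normalization of the brightest probe of each gene was summed on each array. The sums varied across the 4 arrays from 40054 to 46186 for the myeloid list and from 814 to 993 for the erythroid list. For the lymphoid list they reached from 5979 to 7482. These sums are of different probes and can be compared between arrays but not between lists. GATA1 and GYPB of the erythroid list and CD3G and MS4A1 of the lymphoid list lacked the detection mark on all 4 arrays. No marker probe passed the unadjusted threshold between treatments in the fit without a term for the experiment. With the experiment number as a block, AHSP of the erythroid list passed (-0.55, unadjusted p = 0.0336, adjusted p = 0.969 from limma). It had the detection mark on the 2 control mimic arrays only and was tested through these, so this pass gives no support for a difference. When its miR-511 mimic values were raised to the lowest marked value of each array, control mimic was only 1.00-fold of miR-511 mimic.

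None of the 14 tested probes differed between the treatments at an unadjusted p below 0.05, the threshold of the study, in limma's moderated test, against 2.2% of all tested probes (498 of 22638). All 14 had an adjusted p of 1.00 after Benjamini-Hochberg adjustment over all tested probes, and the unadjusted p-values lay between 0.308 and 0.997. The log2 difference, miR-511 minus control mimic, was above 0 for 7 probes and below 0 for 7, with a median of 0.011 beside 0.0098 for all tested probes. The median of its size was 0.047 beside 0.079 for all tested probes. The lowest value was -0.25 for HMOX1, a 1.19-fold lower level, and the highest 0.10 for SLC11A1. The order depended on the processing, as IREB2 was the lowest member after normexp background correction (-0.35, with HMOX1 at -0.15) and with spots marked as outliers kept (-0.21, with HMOX1 at -0.16), and SLC40A1 was the highest after normexp (0.11). With HMOX1 left aside, the 95% intervals of the differences reached from -0.69 to 0.54, so that changes of this size are not told apart from none with 2 arrays per treatment. An exact two-sided permutation test of 2 against 2 arrays cannot give a p below 0.333. Fewer cells with a transcript and less transcript per cell cannot be told apart in bulk RNA.

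**Figure D1:**
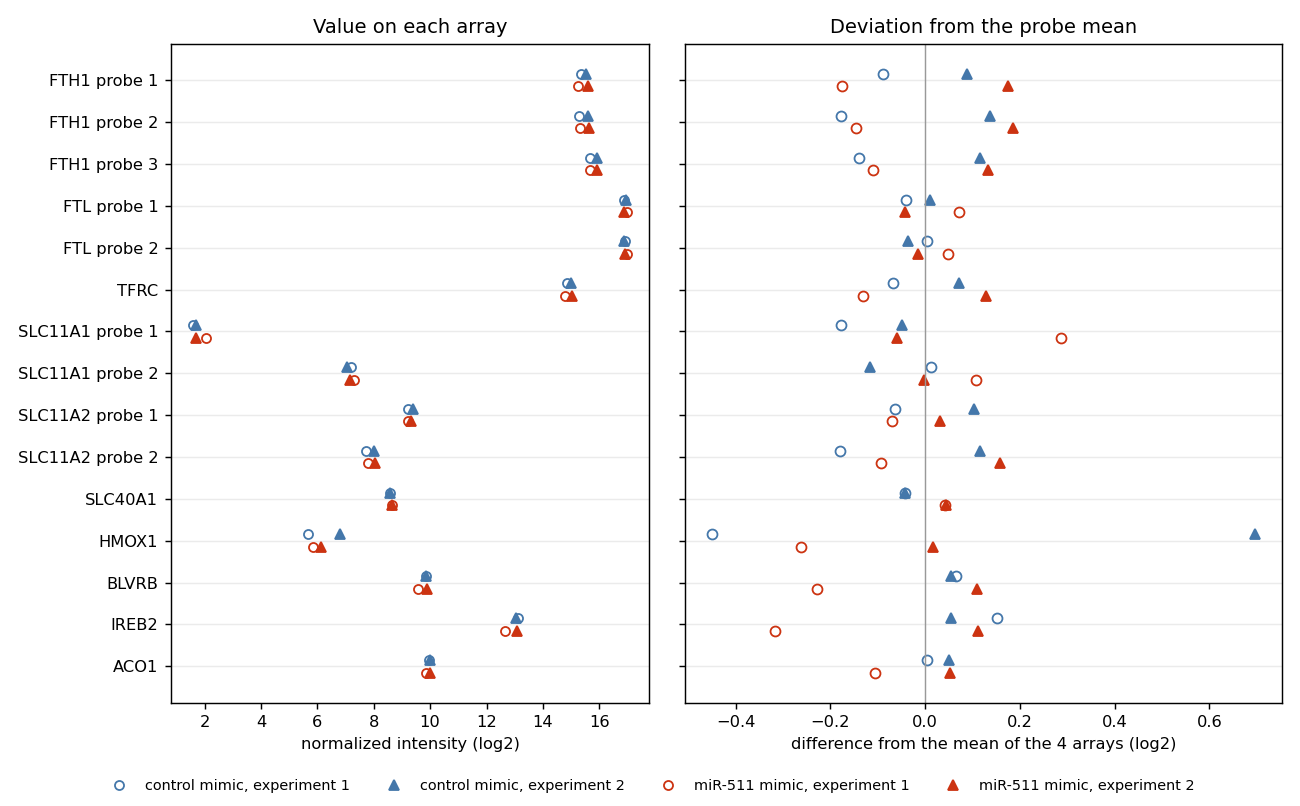
Normalized intensity (log2) of the 15 member probes on each of the 4 arrays (left), and the same values as differences from the mean of the 4 arrays of that probe (right). Blue marks the control mimic and red the miR-511 mimic, open circles experiment 1 and filled triangles experiment 2, and several probes of a gene are numbered in the order in which the text gives them. The deviations of the FTH1 probes follow the experiment, with all triangles to the right of all circles, while the triangle of the control mimic for HMOX1 lies farthest from its mean, at 6.81 on the log2 scale against 5.66 to 6.13 on the other arrays.

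FTH1, the ferritin heavy chain with ferroxidase activity, was measured with 3 probes on chromosome 11 of hg19, minus strand. Probe 1 (A_24_P58337, chr11:61732276-61732335) had log2 values of 15.35 and 15.52 with control mimic in experiments 1 and 2, and of 15.26 and 15.61 with miR-511 mimic. The arrays of experiment 2 were the higher ones and the treatments overlapped. Its log2 difference was -0.00055 (standard error 0.16, unadjusted p = 0.997, adjusted p = 1.00 from limma), being -0.087 in experiment 1 and 0.086 in experiment 2.

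Probe 2 (A_32_P342064, chr11:61732038-61732096) had 15.29 and 15.60 with control mimic and 15.32 and 15.65 with miR-511 mimic. Probe 3 (A_33_P3253249, chr11:61732071-61732130) had 15.66 and 15.92 with control mimic and 15.69 and 15.93 with miR-511 mimic. In both, the arrays fell into a lower set from experiment 1 and a higher set from experiment 2, with the treatments interleaved. The log2 differences between treatments were 0.040 (standard error 0.18) and 0.023 (standard error 0.15). The file lists probe 3 also for FTH1P3, a ferritin heavy chain pseudogene, so its signal may hold more than FTH1.

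Probes 2 and 3 overlap by 26 bases of the genome, chr11:61732071-61732096, by the coordinates listed for them. Their letters in this stretch are not identical, as the following lines show with the differing bases in capitals.
FTH1 probe 3: GacaCccacttaagttctttgatttg
FTH1 probe 2: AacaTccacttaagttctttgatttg
The differences are G1A and C5T, with the base of probe 3 first and positions counted from the 5′ end of the stretch. Which of the probes matches FTH1 at these bases was not analysed. The probes gave log2 differences of the same sign in both experiments, 0.030 and 0.017 for probe 3 and 0.031 and 0.049 for probe 2.

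FTL, the ferritin light chain that promotes the mineral core and whose iron-responsive element is printed above, was measured with 2 probes on chromosome 19 of hg19, plus strand. Probe 1 (A_23_P50504, chr19:49468731-49468790) had 16.88 and 16.94 with control mimic and 17.00 and 16.88 with miR-511 mimic. Probe 2 (A_32_P155247, chr19:49469029-49469088) had 16.92 and 16.88 with control mimic and 16.97 and 16.91 with miR-511 mimic. All values of each probe lay close to each other, and the treatments overlapped. In probe 2 both arrays of experiment 1 were above those of experiment 2, while in probe 1 the experiments overlapped.

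The log2 difference of FTL was 0.030 for probe 1 (standard error 0.098, 95% interval -0.24 to 0.30) and 0.033 for probe 2 (standard error 0.092, 95% interval -0.22 to 0.28). Probe 2 was higher with miR-511 mimic in both experiments, by 0.044 and 0.022, while probe 1 was at 0.11 in experiment 1 and -0.053 in experiment 2. The scanner intensities of both lay between 109671 and 135743 and were not saturated.

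TFRC, the transferrin receptor through which most cells take in iron, was measured by a probe printed 10 times per array (A_23_P212617, chr3:195776593-195776652, minus strand). The means of its spots were 14.85 and 14.99 with control mimic and 14.78 and 15.05 with miR-511 mimic. The arrays of experiment 2 were the higher ones and the treatments overlapped. The log2 difference was -0.0032 (standard error 0.14, 95% interval -0.37 to 0.37, adjusted p = 1.00 from limma), made up of -0.064 in experiment 1 and 0.058 in experiment 2. The standard deviation of the 9 to 10 spots used per array was 0.050 to 0.11.

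SLC11A1, the divalent metal transporter of the phagosomes of macrophages, was measured with 2 probes on chromosome 2, plus strand. Probe 1 (A_33_P3317005, chr2:219249017-219249076) was not well above background on any of the 4 arrays, with intensities of 2.96 to 3.61, and was not tested. Probe 2 (A_33_P3702055, chr2:219259681-219259740) was well above background on all 4. It had 7.19 and 7.06 with control mimic and 7.28 and 7.17 with miR-511 mimic. The miR-511 array was the higher one in each experiment, by 0.093 and 0.12, but the treatments overlapped across experiments. The log2 difference of 0.10 (standard error 0.11, 95% interval -0.19 to 0.39) did not pass the test (unadjusted p = 0.379, adjusted p = 1.00 from limma). With the experiment number as a block it did not pass either (standard error 0.077, unadjusted p = 0.271 from limma).

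SLC11A2, which moves iron out of endosomes and into cells of the gut, was measured with 2 probes on chromosome 12, minus strand. Probe 1 (A_23_P139820, chr12:51382184-51384602) spans 2419 bases of the genome with its 60 bases and thus crosses a junction of exons. It had 9.21 and 9.38 with control mimic and 9.21 and 9.31 with miR-511 mimic. Probe 2 (A_24_P381494, chr12:51380299-51380358) had 7.72 and 8.02 with control mimic and 7.81 and 8.06 with miR-511 mimic. Both probes were higher in experiment 2 under either treatment, and the treatments overlapped.

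The differences between treatments of the SLC11A2 probes were opposite in sign. Probe 1 had -0.039 (95% interval -0.34 to 0.26) and probe 2 had 0.064 (95% interval -0.38 to 0.51), and each lies inside the interval of the other.

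SLC40A1, or ferroportin, the exporter that releases iron from macrophages, was measured by a probe printed 10 times (A_23_P102391, chr2:190425750-190425809, minus strand). The means were 8.56 and 8.56 with control mimic and 8.65 and 8.65 with miR-511 mimic. Here both miR-511 arrays lay above both control arrays, by 0.086 in experiment 1 and 0.088 in experiment 2. SLC40A1 was the only 1 of the 14 tested probes (7.14%) in which the treatments did not overlap, a pattern found in 25.7% of all tested probes. With 75th percentile scaling FTL probe 2 showed the pattern as well, and after normexp background correction SLC11A1 probe 2 did.

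The log2 difference of SLC40A1 was 0.087 (standard error 0.088, 95% interval -0.15 to 0.33), a 1.06-fold higher level that did not pass the test (unadjusted p = 0.377, adjusted p = 1.00 from limma). Single spots of 1 array varied with a standard deviation of 0.059 to 0.11, and the spots of the treatments overlapped, reaching from 8.35 to 8.69 with control mimic and from 8.47 to 8.83 with miR-511 mimic. When spots marked as outliers were kept, the difference was -0.040 in experiment 1 and 0.074 in experiment 2, and the treatments overlapped.

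HMOX1, heme oxygenase 1, the inducible enzyme that opens heme, varied most between the arrays among the members. Its probe, printed 10 times (A_23_P120883, chr22:35790122-35790181, plus strand), had 5.66 and 6.81 with control mimic and 5.85 and 6.13 with miR-511 mimic. The control array of experiment 2 was the highest and the other 3 lay below it, with the treatments overlapping. The means were 6.24 ± 0.81 (SD, n = 2) with control mimic and 5.99 ± 0.20 (SD, n = 2) with miR-511 mimic.

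The log2 difference of HMOX1 was -0.25 (standard error 0.42, 95% interval -1.39 to 0.90, unadjusted p = 0.587, adjusted p = 1.00 from limma). It was 0.19 in experiment 1 and -0.68 in experiment 2, opposite in sign. From experiment 1 to experiment 2, HMOX1 was 2.22-fold higher with control mimic and 1.21-fold higher with miR-511 mimic. The difference between the experiments' differences, -0.87, has no test, since each rests on 1 array per treatment.

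The intensities of HMOX1 before normalization were 54.5 and 110 with control mimic and 51.0 and 89.3 with miR-511 mimic. The medians of the arrays were 92.3 to 111.2. The spots show how closely the copies of the HMOX1 probe on an array gave the same value. In experiment 2 the spots reached from 6.69 to 6.94 with control mimic and from 5.97 to 6.30 with miR-511 mimic and did not overlap. In experiment 1 they reached from 5.51 to 5.82 with control mimic and from 5.16 to 6.04 with miR-511 mimic and overlapped. Spots of 1 array are copies of the same measurement and not replicates of the treatment. Without the control array of experiment 1, the log2 difference of HMOX1 became -0.82 and passed the unadjusted threshold (unadjusted p = 0.0188, adjusted p = 1.00 from limma), and without that of experiment 2 it became 0.33. Each of these fits has a lone control array, which is assumed to vary like the miR-511 arrays. After normexp background correction, which shrinks differences of dim probes, the values of the experiments were 0.061 and -0.35.

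**Figure D2:**
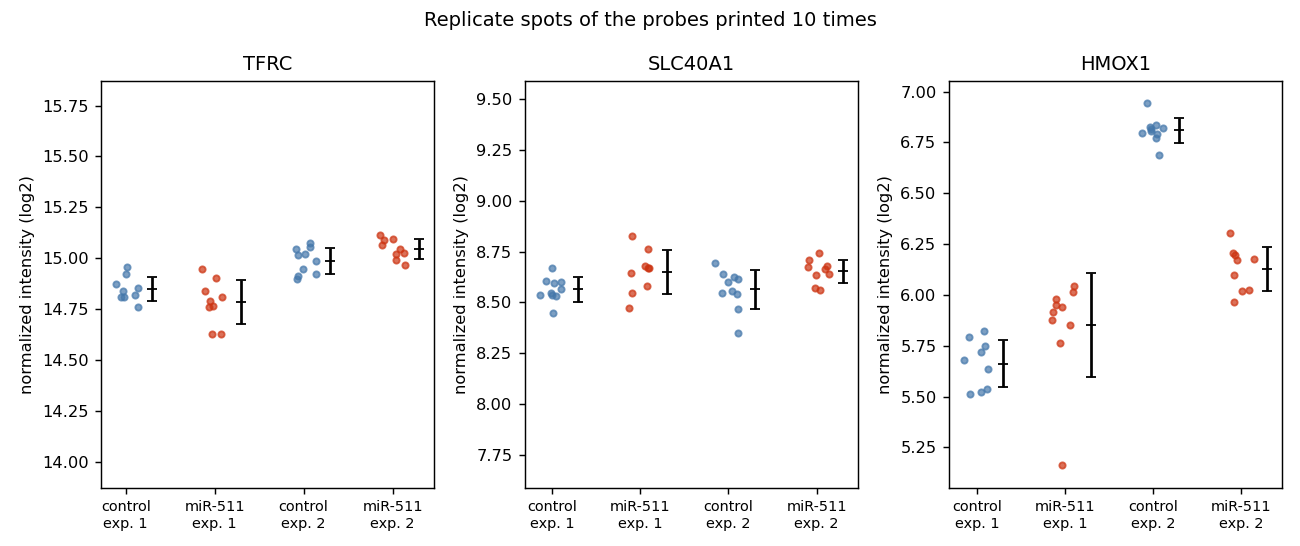
Normalized intensity (log2) of single spots of the 3 member probes printed 10 times, on each array, with the mean and the standard deviation of the spots as black bars. Each panel spans the same range of 2 log2 units. The spots of TFRC and SLC40A1 overlap between treatments, while those of HMOX1 in experiment 2 are separate, with 6.69 to 6.94 for control and 5.97 to 6.30 for miR-511 mimic.

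BLVRB, biliverdin reductase B, was measured with the probe A_33_P3360728 (chr19:40953701-40953760, minus strand). It had 9.85 and 9.84 with control mimic and 9.55 and 9.89 with miR-511 mimic. The miR-511 array of experiment 1 was the lowest and the other 3 were alike. The log2 difference was -0.12 (standard error 0.15, 95% interval -0.52 to 0.28, unadjusted p = 0.463 from limma), and it was -0.29 in experiment 1 and 0.056 in experiment 2.

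IREB2, iron regulatory protein 2, which is degraded when iron is plentiful, was measured with the probe A_33_P3221528 (chr15:78793507-78793566, plus strand). It had 13.13 and 13.03 with control mimic and 12.66 and 13.09 with miR-511 mimic. Again the miR-511 array of experiment 1 was the lowest, and the treatments overlapped. The log2 difference was -0.20 (standard error 0.18, 95% interval -0.69 to 0.28, unadjusted p = 0.308, adjusted p = 1.00 from limma).

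Most of the IREB2 difference came from experiment 1, with -0.47, while experiment 2 gave 0.058. Without the miR-511 array of experiment 2, the value was -0.42 (unadjusted p = 0.0441, adjusted p = 0.778 from limma), and without that of experiment 1 it was 0.0100, with the lone miR-511 array assumed to vary like the controls. After normexp background correction the value was -0.71 in experiment 1, 0.0034 in experiment 2 and -0.35 over both.

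ACO1 encodes the cytosolic aconitase, which without its iron-sulfur cluster acts as iron regulatory protein 1. Its probe (A_23_P9415, chr9:32450545-32450604, plus strand) had 9.96 and 10.001 with control mimic and 9.84 and 10.004 with miR-511 mimic. The miR-511 array of experiment 1 was the lowest here too. The log2 difference was -0.054 (standard error 0.11, 95% interval -0.34 to 0.23), with -0.11 in experiment 1 and 0.0032 in experiment 2.

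**Figure D3:**
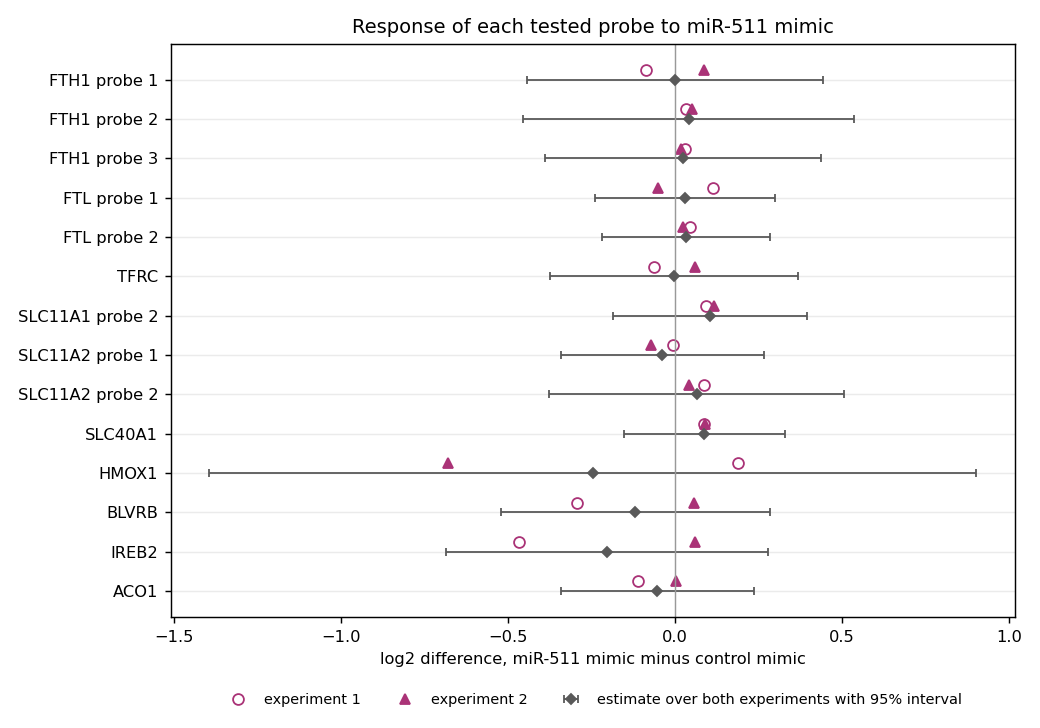
Log2 difference, miR-511 minus control mimic, of the 14 tested member probes. Circles and triangles give experiments 1 and 2, and diamonds with bars the estimate over both with its 95% interval. All 14 intervals include 0, the widest being that of HMOX1 from -1.39 to 0.90.

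The difference had the same direction in both experiments for 7 of the 14 probes, and for 11538 of all 22638 tested probes. These were FTH1 probes 2 and 3, FTL probe 2, SLC11A1 probe 2, both SLC11A2 probes and SLC40A1, and none of them differed by more than 0.12 in either experiment. With 75th percentile scaling the number was 5, as FTH1 probes 2 and 3 were at -0.0070 and -0.036 in experiment 1, and with outlier spots kept it was 6, without SLC40A1. In experiment 1, 8 probes were higher and 6 lower with miR-511 mimic, and in experiment 2, 11 were higher and 3 lower. Of all 22638 tested probes, 13078 were higher in experiment 1 and 11272 (49.8%) in experiment 2. The extremes of all members, HMOX1 in experiment 2 and IREB2 in experiment 1, were not seen in the other experiment. For comparison, the middle 95% of all tested probes lay between -0.78 and 0.51 in experiment 1 and between -0.56 and 0.52 in experiment 2.

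Several members differed more between the experiments than between the treatments, a comparison chosen after the values were seen. In a fit with treatment and experiment as terms, 3 of the 14 probes (21.4%) passed the unadjusted threshold between experiments, against 11.6% of all tested probes. All 3 were higher in experiment 2. They were FTH1 probe 2 with a log2 difference of 0.32 (standard error 0.077, unadjusted p = 0.0256, adjusted p = 0.406 from limma), FTH1 probe 3 with 0.25 (standard error 0.077, unadjusted p = 0.0486, adjusted p = 0.432) and SLC11A2 probe 2 with 0.27 (standard error 0.078, unadjusted p = 0.0402, adjusted p = 0.424). FTH1 probes 2 and 3 overlap by 26 bases, so the share of 21.4% counts this gene more than once. SLC11A2 probe 2 did not pass with 75th percentile scaling (unadjusted p = 0.0516 from limma) or normexp (unadjusted p = 0.0689). The lowest adjusted p of the members was thus 0.406, and none passed the adjustment over all tested probes.

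FTH1 probe 1 had a similar difference between experiments of 0.26 (standard error 0.092, unadjusted p = 0.0648, adjusted p = 0.445 from limma). The 3 FTH1 probes are listed for the same FTH1 transcript, and probe 3 also for FTH1P3. The light chain probes had values near 0, -0.030 for FTL probe 1 (standard error 0.091, adjusted p = 0.902 from limma) and -0.052 for probe 2 (standard error 0.077, adjusted p = 0.791). TFRC had 0.20 (standard error 0.085, adjusted p = 0.478) and HMOX1 had 0.71 (standard error 0.26, adjusted p = 0.457). Whether the change from experiment to experiment was unequal between FTH1 and FTL was not tested.

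The arrays of the experiments did not overlap in 10 of the 14 probes (71.4%), against 48.9% of all tested probes, with probes of the same gene counted separately. In 8 of the 10 the arrays of experiment 2 were the higher ones, and in FTL probe 2 and SLC11A1 probe 2 the lower ones. Of the 14, 11 were higher in experiment 2, with a median log2 difference of 0.17 beside -0.0093 for all tested probes. The labels give the experiments only as numbers, and what differed between them was not tested.

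**Figure D4:**
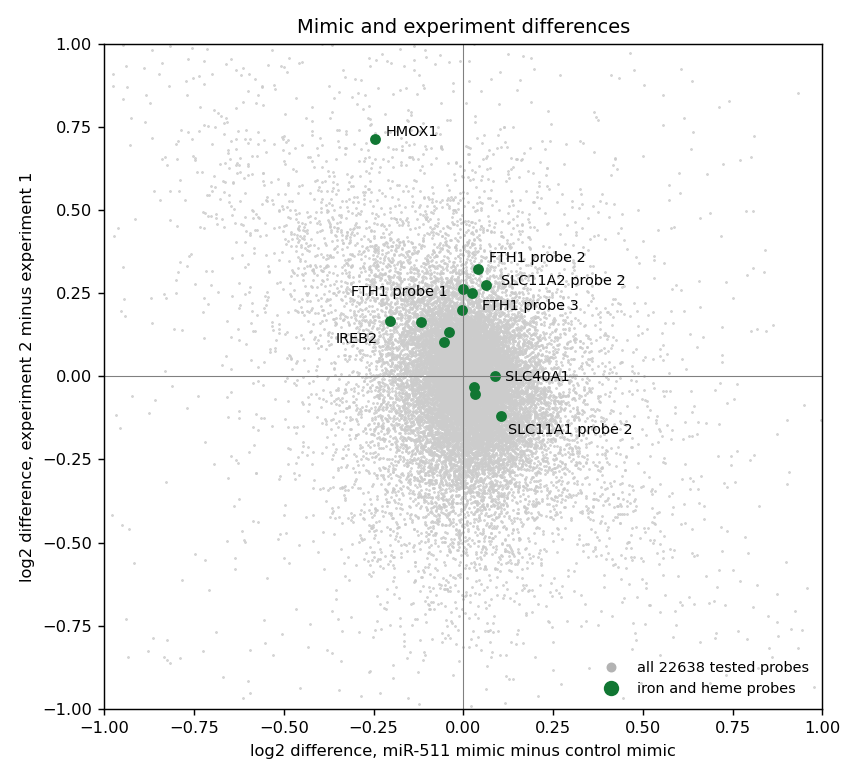
Log2 difference between treatments (horizontal axis) and between experiments (vertical axis) of all 22638 tested probes (grey) and the 14 member probes (green), with 323 grey probes outside the plotted range of 1 in either direction. The FTH1 probes lie near 0 on the horizontal axis and between 0.25 and 0.32 on the vertical one, and HMOX1 lies at -0.25 and 0.71.

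Other genes of iron and heme biology were taken from 5 lists with 68 genes. Of these, 67 were listed on the array, with 95 probes, and 77 probes of 55 genes were tested. Between treatments, 1 probe (1.30%) passed the unadjusted threshold against the 2.2% of all tested probes, and the median log2 difference was -0.0047, with 38 probes higher and 39 lower. The treatments did not overlap in 21 of the 77 probes (27.3%), close to the 25.7% of all tested probes.

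The probe that passed was that of TFR2, the second transferrin receptor, a partner of HFE in iron sensing by the liver and by erythroid cells. It had 6.41 and 6.53 with control mimic and 6.84 and 6.72 with miR-511 mimic, so that both miR-511 arrays were above both controls. The log2 difference was 0.31 (standard error 0.11, unadjusted p = 0.0428, adjusted p = 1.00 from limma). With the experiment number as a block its unadjusted p was 0.0609, and it passed in none of the 4 fits that left out an array, where the value lay between 0.24 and 0.37. It did not pass after normexp background correction either (0.18, unadjusted p = 0.0830 from limma) or with an intensity trend (unadjusted p = 0.0693).

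Iron uptake, export and circulating carriers gave this 1 call among 14 tested probes, with a median log2 difference of -0.053. TF, LTF, LCN2, STEAP2 and HJV, which is listed under its older name HFE2, lacked the detection mark on all 4 arrays. STEAP1, named after its values were seen, belongs to a family of ferric reductases, and had -0.32 (standard error 0.12, unadjusted p = 0.0598, adjusted p = 1.00 from limma) and -0.27 (standard error 0.11, unadjusted p = 0.0724) with its 2 probes. The first of these passed with the experiment number as a block (unadjusted p = 0.0264, adjusted p = 0.969 from limma), where TFR2 did not.

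No probe passed in the other 4 lists. Ferritin turnover and cytosolic iron handling had 9 tested probes with a median of 0.034. In it NCOA4, named for its role after its values were seen, the receptor that takes ferritin to the lysosome, had 2 probes of opposite sign, at 0.083 and -0.083. Heme synthesis had 10 tested probes with a median of 0.055, and ALAS1, its rate-limiting enzyme in most tissues, was not tested because its spot was marked as an outlier on 1 array. Heme transport, breakdown and its regulators had 15 tested probes with a median of -0.032. ABCG2, CD163, HPX and NFE2L2 of that list lacked the detection mark on all 4 arrays, and HMOX2, the constitutive heme oxygenase, chosen in the same way as NCOA4, had -0.051 (standard error 0.11). NFE2L2 had a single probe, with log2 values of 1.01 to 1.03, so absence of its transcript is not shown. Mitochondrial iron and iron-sulfur cluster assembly had 29 tested probes with a median of -0.0047.

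**Figure D5:**
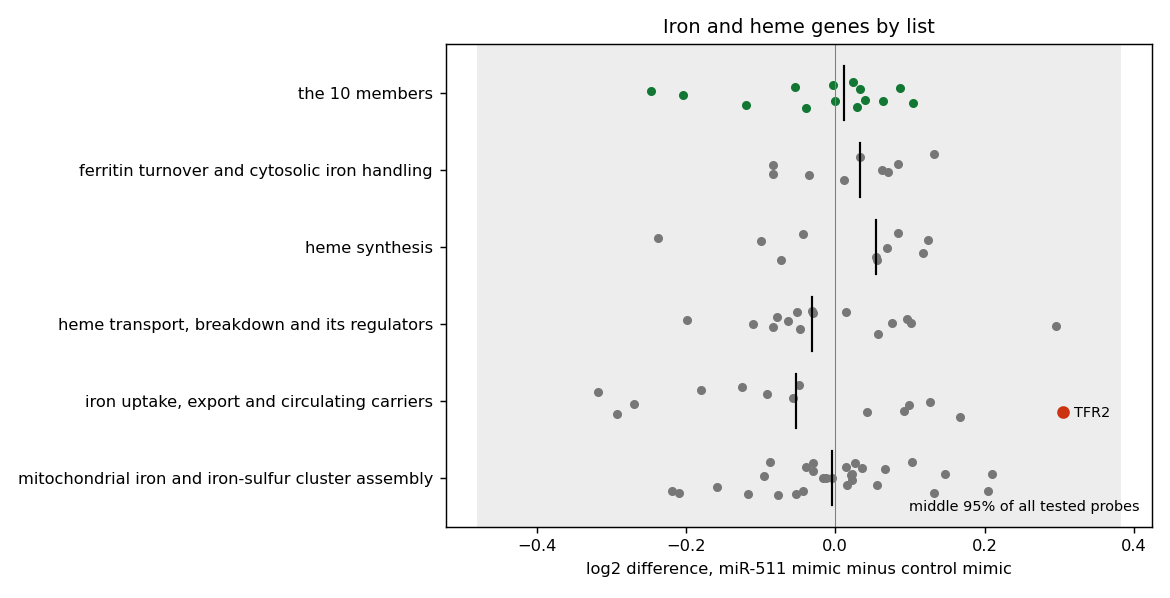
Log2 difference, miR-511 minus control mimic, of each tested probe of the members (green) and of the 5 other lists (grey), with the median of each list as a black line and the probe past the unadjusted threshold, TFR2 at 0.31, in red. The shaded band holds the middle 95% of all tested probes, from -0.48 to 0.38, and all points lie inside it.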

How the data were processed

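Single-color Agilent Human Whole Genome arrays were hybridized with Cy3-labeled RNA of 4 samples. The authors deposited scanner files with an intensity per spot, background-subtracted by Feature Extraction (10.7.3.1 per the file headers, 10.5.1.1 in the submitters' processing notes), with flags for outliers and for signal well above background. The log2 values in a further deposited table, quantile normalized over the same arrays, were used as an alternative. Probe coordinates are those of the files (hg19). Where a probe lies in its transcript was not analysed here.

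With R 4.3.3 and limma 3.58.1, log2 intensities of 43118 non-control spots were quantile normalized after 232 to 301 marked spots per array were left out, and the spots of a probe were averaged. Probes with a value on all arrays and a mark for signal well above background on the 2 arrays of 1 or both treatments (for probes printed 10 times, on more than 50% of spots) were tested with lmFit and eBayes (4.14 total degrees of freedom, two-sided), with no term for the experiment, as the study's methods name none. The script was tested on simulated data.

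The labels number the experiments, which pair the arrays. Arrays with the same number deviated together from their treatment means (correlation 0.271 across probes). The members and lists were chosen with earlier results of these data known. Named were all member probes, genes of the lists past the unadjusted threshold, and list genes not well above background. AHSP, STEAP1, NCOA4, ALAS1, HMOX2 and the list genes that differed between experiments were named after their values were seen. All 15 member probes kept their gene name in RefSeq by accession. BOLA2, LYZ, FCGR1A and HBA1 were not found under these names. Alternatives were 75th percentile scaling, normexp (offset 50), other filters, outlier spots kept, the deposited table, the experiment as a block, an intensity trend and leaving out each array. The number of arrays limits the precision.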

Additional observations from a re-analysis of the deposited data

How the results depend on the processing

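The number of member probes past the unadjusted threshold was 0 with 75th percentile scaling, normexp background correction, no filter or the stricter filter on dim probes, outlier spots kept, the deposited table, the replicate block and the intensity trend, and 0 to 1 with 1 array left out (HMOX1 without control mimic replicate 1, IREB2 without miR-511 mimic replicate 2). Over all tested probes the count of 498 became 265 with normexp, 1029 without the filter, 285 with the intensity trend, 894 with the replicate block, and 516 to 1379 with 1 array left out. No probe passed adjustment in limma under any of these. The block changed no member's call. In the 5 wider lists the count of 1 became 3 with 75th percentile scaling, 3 without the filter, 0 with the intensity trend and 1 to 2 with 1 array left out, and with normexp and with the replicate block the 1 probe was not that of TFR2.

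The direction reversed with normexp for FTH1 probe A_24_P58337 (0.035), TFRC (0.014) and SLC11A2 probe A_23_P139820 (0.024), and with the deposited table for FTH1 probe A_24_P58337 (0.0029) and TFRC (0.00050). With 1 array left out, the log2 difference crossed 0 for the FTH1 probes A_24_P58337 (-0.18 to 0.17), A_32_P342064 (-0.13 to 0.21) and A_33_P3253249 (-0.10 to 0.15), FTL probe A_23_P50504 (-0.027 to 0.086), TFRC (-0.13 to 0.13), the SLC11A2 probes A_23_P139820 (-0.12 to 0.044) and A_24_P381494 (-0.085 to 0.21), HMOX1 (-0.82 to 0.33), BLVRB (-0.29 to 0.051), IREB2 (-0.42 to 0.0100) and ACO1 (-0.13 to 0.026). Without crossing 0, SLC11A1 moved between 0.039 and 0.17 and FTL probe A_32_P155247 between 0.0019 and 0.065. The causes were not tested. The count of 3 between experiments was 2 to 4 under 4 alternatives chosen after seeing the data, where FTH1 probes A_32_P342064 and A_33_P3253249 passed throughout. SLC11A2 probe A_24_P381494 was lost with 75th percentile scaling and normexp, FTH1 probe A_24_P58337 gained with normexp (0.22, unadjusted p = 0.0315), and HMOX1 gained with normexp (0.35, unadjusted p = 0.0423) and with outlier spots kept (0.81, unadjusted p = 0.0369), all from limma. That fit could not be run without an array, which leaves no residual degrees of freedom, and all arrays lay on 1 slide.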

Other observations

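In the wider lists, 5 of 77 tested probes passed the unadjusted threshold between experiments in limma's fit with treatment and experiment as terms, against 11.6% of all tested probes, a comparison chosen after the values were seen. None passed adjustment, with adjusted p-values of 0.388 to 0.424. CYBRD1, a ferric reductase, was lower in experiment 2 with a log2 difference of -0.63, and its other probe had -0.21 and did not pass. FECH, the ferrochelatase that inserts iron into protoporphyrin, was higher with 0.35, and its other probe had 0.20 and did not pass. SLC48A1, a heme transporter of lysosomes, was higher with 0.27, and its other probe had 0.35 and did not pass. BOLA3, which takes part in the transfer of iron-sulfur clusters in mitochondria, had 0.79 with the probe that passed and 0.083 with its other probe. ALAS2, the erythroid enzyme that starts heme synthesis, was lower with -0.62 and was well above background on 3 of the 4 arrays.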
